A study of Rattus norvegicus with 10 samples.

Results

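MiR-146a, miR-146b, miR-150, miR-21 and miR-223, microRNAs best known from inflammation, were counted in the rat dorsal vagal complex after a remote limb ischemia, a myocardial infarct, or both. They were chosen by name, as every microRNA probe of the panel named miR-146, miR-150, miR-155, miR-21 or miR-223 with any letter or arm, and they are 5 of 420 microRNA probes. MiR-155 had 0 probes in these counts and was not analysed.

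The dorsal vagal complex (DVC) is the hindbrain region that holds the dorsal motor nucleus of the vagus, together with the sensory nucleus that receives vagal afferents. Most vagal axons of this motor nucleus run to the gut and a smaller part to the heart. Each of 10 adult male Sprague-Dawley rats gave 1 punch sample of this region, cut from frozen brainstem sections and holding neurons, glia and vessels alike. Under ketamine and xylazine anesthesia, 2 animals were given remote ischemic preconditioning (RIPC), a transient block of the femoral vessels of the hindlimbs, and 2 h later had the left anterior descending coronary artery tied off (RIPC+LAD, labelled rIPC 2h/LAD). The ligation through an opened chest was the only procedure in 3 animals (LAD), RIPC was the only procedure in 2 animals (RIPC, labelled rIPC), and 3 animals were the age-matched controls (AMC). Tissue of the groups with an infarct was taken 24 h after the artery was tied. For RIPC alone, the study's methods put the collection at the same interval after RIPC as in RIPC+LAD. No sham group is among these labels, so the ischemia cannot be told apart from the anesthesia and the surgery that each procedure brings.

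MicroRNAs are short RNAs that guide a silencing complex to messenger RNAs, mainly through bases 2 to 8, the seed. In mouse and human cells miR-146a is induced by the transcription factor NF-kB and, like its paralog miR-146b, represses the kinase IRAK1 and the adaptor TRAF6 of Toll-like receptor signalling, and so acts as a brake on the response that induces it. MiR-155 is induced by the same receptors and is known for promoting inflammation. MiR-150 is abundant in mature lymphocytes, where it represses the transcription factor Myb, miR-223 is abundant in neutrophils and other myeloid cells, and miR-21 is induced by injury in many tissues and represses Pdcd4. In brain, microglia and blood cells left in the vessels are among the known sources of such microRNAs.

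The mature sequences show which of these RNAs could share targets or be confused by a probe, and the capitals mark the seed. They are RefSeq sequences on the rat assembly GRCr8, where 4 of the 5 members were matched, all but miR-150.
miR-146a-5p: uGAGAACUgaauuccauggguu
miR-146b-5p: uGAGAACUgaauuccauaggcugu
miR-21-5p: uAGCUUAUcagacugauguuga
miR-223-3p: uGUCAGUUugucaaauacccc
MiR-146a-5p lies at chr10:28350053-28350074 on the minus strand, and its gene overlaps the long noncoding RNA gene LOC134480673. MiR-146b-5p lies at chr1:255144874-255144897 on the plus strand, and its gene overlaps the protein-coding gene C1h10orf95. MiR-21-5p lies at chr10:71902653-71902674 on the minus strand with no other annotated gene over it. MiR-223-3p lies at chrX:65151450-65151470 on the plus strand, and its gene overlaps the long noncoding RNA gene LOC120099372. Overlap was taken by position only, without regard to strand. The miR-146 paralogs had the same first 17 bases, seed included, and differed by G18A and U21C, counted from 1 at the 5′ end with the miR-146a base first, while miR-146b was 2 bases longer. Their seed occurred in no other rat mature sequence of the table, and the seeds of miR-21 and miR-223 each occurred once. The probe names carry no arm, and the arm shown is the one that the plain name usually stands for. The sources used here do not say how the panel keeps the miR-146 paralogs apart, so the split of their counts is uncertain.

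The total microRNA count of a sample was 80696 to 93246 in RIPC+LAD, 28485 to 102329 in LAD, 73293 to 90086 in RIPC and 90348 to 102824 in AMC. LAD 2 with 42893 and LAD 3 with 28485 were the shallowest. A synthetic spike-in split the samples into a high set (AMC 1 to 3, RIPC 2 and LAD 1) and a low set (RIPC 1, LAD 2, LAD 3 and both RIPC+LAD animals), which coincides wholly with RIPC+LAD against AMC. A second control, for the ligation step of the assay, averaged 45.5% and 70.9% of the spike-in in RIPC+LAD, 22.3% or less in LAD, 16.0% to 32.9% in RIPC and 16.1% to 35.1% in AMC, so RIPC+LAD stood above the other groups there. Of 6 microRNA probes on the neuron list (miR-124, miR-128, miR-129, miR-137 and miR-218), 5 were above background in all 10 samples, and none of them is particular to the DVC.

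The members spanned a wide range of counts. MiR-150 ranked 17 among the 253 microRNAs detected, with a mean of 1580 per 100000 microRNA counts. MiR-146a ranked 87 with 60.4, miR-21 ranked 100 with 47.9 and miR-146b ranked 120 with 33.4 per 100000. These 4 were above the background threshold, set by the negative controls of each sample, in 10 of 10 samples. Different probes need not capture their targets equally well, so the ranks order counts and not molecules.

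MiR-223 was the exception. Its counts were 1 and 3 in RIPC+LAD, 4, 3 and 1 in LAD, 3 and 3 in RIPC, and 4, 2 and 5 in AMC. All 10 counts were below the threshold of their sample, which ran from 4.75 to 11.7 counts, so miR-223 was not detectable at this depth in any group. Its highest count, 5 in AMC 3, has an exact Poisson 95% interval of 1.62 to 11.7. It was not tested, and no group difference can be read from these counts.

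**Figure D1:**
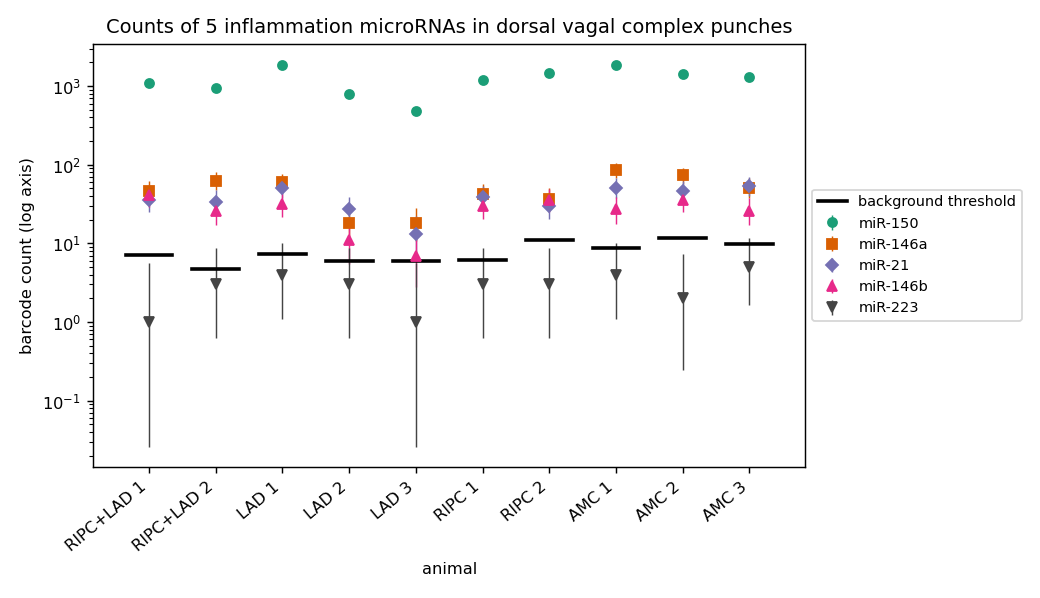
Count of each of the 5 microRNAs in every animal on a log axis, in the groups RIPC+LAD, LAD, RIPC and AMC, with exact Poisson 95% intervals as error bars and the background threshold of the sample as a black bar. MiR-150 lies between 480 and 1871 counts, miR-146a, miR-21 and miR-146b lie lower and above the bars, and miR-223 lies below the bar in all 10 samples.

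MiR-146a was counted 46 and 63 times in RIPC+LAD, 60, 18 and 18 times in LAD, 42 and 37 times in RIPC, and 85, 73 and 51 times in AMC. The 2 counts of 18 come from the shallow samples LAD 2 and LAD 3, and after scaling for library size the order changed. The level in log2 CPM (log2 of the count after TMM scaling of the library) was 9.44 ± 0.17 in RIPC+LAD (SD, n = 2), 9.11 ± 0.36 in LAD (SD, n = 3), 8.93 ± 0.19 in RIPC (SD, n = 2), while AMC stood at 9.52 ± 0.33 (SD, n = 3). AMC thus had the highest mean and RIPC the lowest, and no neighbours in that order were separated in their samples. In tissue RNA, fewer cells of a type and less of the microRNA per cell cannot be told apart.

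The comparison of RIPC with AMC asks what the limb ischemia, together with its anesthesia and surgery, leaves behind in the DVC. The log2 CPM of miR-146a was 9.06 and 8.80 in RIPC, against 9.81, 9.59 and 9.16 in AMC, so the groups did not overlap. The log2 fold change was -0.63 ± 0.33 (SE, 95% interval -1.34 to 0.07), or 0.645 of the AMC level, and edgeR's quasi-likelihood test gave an adjusted p of 0.997. Groups did not overlap in this comparison for 11.9% of all 253 microRNAs. The separation was narrow, since with counts scaled to 100000 alone RIPC 2 had 50.5 and AMC 3 had 49.6. Within the high spike-in set, which holds only RIPC 2 of the RIPC animals, the log2 fold change was -0.72. In the same comparison all 4 leukocyte microRNAs (miR-142 and miR-342) had lower values in RIPC, with a median log2 fold change of -0.28 beside -0.03 over all microRNAs. The most abundant of them, miR-342-3p, was at -0.02. MiR-142-3p was at -0.95, with 56 counts in AMC 3 against 17 and 15 in AMC 1 and AMC 2. Their sum per 100000 was 718 to 753 in RIPC, within the 659 to 771 of AMC. The endothelial miR-126 was also lower in RIPC at -0.29, and so were all 3 tested oligodendrocyte microRNAs with a median of -0.37. The choroid plexus and ciliated cell list had 5 of 6 at higher values in RIPC with a median of 0.58. None of these passed the test, and their part in the value of miR-146a was not tested.

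After the ligation alone, miR-146a was at -0.42 ± 0.30 (SE) relative to AMC on the log2 scale, with a 95% interval of -1.06 to 0.22, and the groups overlapped. LAD 2 at 8.70 log2 CPM was the lowest of the 10 samples, while LAD 1 at 9.29 and LAD 3 at 9.34 lay within the AMC range. Without AMC 1 the log2 fold change was -0.19, and without LAD 2 it was -0.20. The adjusted p of edgeR was 0.967.

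In RIPC+LAD the level of miR-146a was near that of AMC, at -0.10 ± 0.32 (SE, 95% interval -0.79 to 0.58) on the log2 scale. Both RIPC+LAD samples, at 9.32 and 9.55 log2 CPM, lay above both RIPC samples, at 9.06 and 8.80. That log2 fold change was 0.53 ± 0.36 (SE), with an adjusted p of 0.588 in edgeR, and in this comparison of 2 with 2 animals 49.0% of all 253 microRNAs did not overlap. Against LAD the log2 fold change was 0.32 ± 0.34 (SE, adjusted p = 0.609 in edgeR), and it came to 0.00 without LAD 2. LAD against RIPC was at 0.21 ± 0.35 (SE, adjusted p = 0.9995 in edgeR).

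The interaction asks whether the ligation effect differs with and without RIPC, as the effect with RIPC (RIPC+LAD against RIPC) minus that without (LAD against AMC). For miR-146a it was 0.95 ± 0.47 (SE, 95% interval -0.05 to 1.95) on the log2 scale, the largest size among the 4 members tested. Its unadjusted p in edgeR was 0.061 and its adjusted p 0.423. The value was 0.67 without AMC 1, and it was 1.33 where the ligation control entered the fit as a covariate.

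MiR-146b was counted 41 and 26 times in RIPC+LAD, 32, 11 and 7 times in LAD, 30 and 36 times in RIPC, and 27, 36 and 26 times in AMC. The count of 7 in LAD 3, just above its threshold of 5.91, has a Poisson interval of 2.81 to 14.4, so counting error is wide there. The level was 8.75 ± 0.58 log2 CPM in RIPC+LAD (SD, n = 2), 8.18 ± 0.22 in LAD (SD, n = 3), 8.68 ± 0.11 in RIPC (SD, n = 2), while AMC stood at 8.37 ± 0.21 (SD, n = 3). LAD had the lowest mean and RIPC+LAD the highest, and RIPC+LAD 1 at 9.16 was the highest of the 10 samples while RIPC+LAD 2 at 8.34 lay within the AMC range.

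In LAD the log2 CPM of miR-146b was 8.43, 8.04 and 8.06, against 8.60 and 8.76 in RIPC, and the groups did not overlap. This difference between the procedures was -0.49 ± 0.37 (SE, 95% interval -1.26 to 0.29) on the log2 scale, with an adjusted p of 0.9995 in edgeR, and 15.4% of all microRNAs did not overlap between these groups. Against AMC, miR-146b was at -0.16 ± 0.33 (SE) in LAD with overlapping groups, where 9.09% of all microRNAs did not overlap and 0 of the 4 members tested were among them. In RIPC it was at 0.33 ± 0.34 (SE) against AMC, and at 0.55 without AMC 2. The higher mean of RIPC+LAD came from RIPC+LAD 1. The log2 fold change was 0.45 ± 0.34 (SE) against AMC, 0.61 ± 0.36 against LAD and 0.12 ± 0.37 against RIPC, and without RIPC+LAD 1 it was -0.18 against AMC, -0.01 against LAD and -0.53 against RIPC.

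The paralogs could also be set against each other within an animal, where depth and scaling cancel. The count of miR-146a over that of miR-146b was 1.12 and 2.42 in RIPC+LAD, 1.88, 1.64 and 2.57 in LAD, 1.40 and 1.03 in RIPC, and 3.15, 2.03 and 1.96 in AMC. Both RIPC animals lay below all LAD and AMC animals, and RIPC+LAD 1 was as low as they were while RIPC+LAD 2 lay within the AMC range. This ratio was looked at after the values were seen and was not tested, and with 7 to 41 counts of miR-146b behind it the counting error is large. The uncertain split of counts between the paralogs bears on it directly. How many other pairs of microRNAs part the RIPC animals in this way was not computed. The low ratio in RIPC therefore cannot be called unusual.

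**Figure D2:**
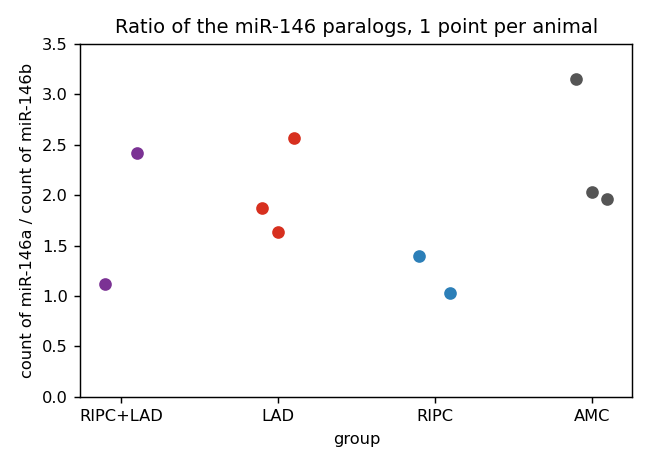
Count of miR-146a divided by the count of miR-146b, 1 point per animal, in the groups RIPC+LAD, LAD, RIPC and AMC, on an axis from 0. The RIPC animals are at 1.40 and 1.03, and the AMC animals are at 3.15, 2.03 and 1.96.

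MiR-150 was counted 1098 and 958 times in RIPC+LAD, 1850, 783 and 480 times in LAD, 1193 and 1464 times in RIPC, and 1871, 1411 and 1299 times in AMC. Its level was 13.64 ± 0.29 log2 CPM in RIPC+LAD (SD, n = 2), 14.08 ± 0.08 in LAD (SD, n = 3), 13.92 ± 0.14 in RIPC (SD, n = 2), while AMC stood at 13.94 ± 0.25 (SD, n = 3). The 3 LAD samples were close together despite their unequal depth, and LAD had the highest mean and RIPC+LAD the lowest. No neighbours in that order were separated in their samples.

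The comparison of RIPC+LAD with LAD asks whether the preconditioning procedure, surgery included, changes the state after the infarct. The log2 CPM of miR-150 was 13.84 and 13.43 in RIPC+LAD, against 14.18, 14.05 and 14.02 in LAD, without overlap. The log2 fold change was -0.43 ± 0.29 (SE, 95% interval -1.04 to 0.17), or 0.740 of the LAD level, with an adjusted p of 0.414 in edgeR. Groups did not overlap here for 37.9% of all 253 microRNAs. The value was -0.78 without RIPC+LAD 1, -0.24 without RIPC+LAD 2 and -0.14 where the ligation control entered the fit.

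Marker microRNAs of other cells also differed in value in the same comparison. The 7 probes of the choroid plexus and ciliated cell list summed to 1857 to 2062 per 100000 in RIPC+LAD. They summed to 18722 in LAD 1 but only 2129 in LAD 2 and 2335 in LAD 3. All 6 tested ones were at lower values in RIPC+LAD. The 4 probes of the oligodendrocyte list summed to 983 to 1766 per 100000 in RIPC+LAD. They summed to 5145 in LAD 2 but only 2146 in LAD 1 and 2001 in LAD 3. All 3 tested ones were at lower values in RIPC+LAD. The neuron list went the other way, with 4 of 5 tested ones at higher values in RIPC+LAD and a median log2 fold change of 0.73 beside 0.02 over all microRNAs, and miR-218a, a motor neuron microRNA, was at 1.21 ± 0.35 (SE, adjusted p = 0.114 in edgeR). None of these passed the test, and their part in the value of miR-150 was not tested. The leading microRNAs of the choroid plexus and oligodendrocyte lists, miR-204 and miR-338, were above background in all 10 samples, while miR-449c-5p and miR-219-1-3p were above it in 0. These 2 lists also had lower values in RIPC+LAD against RIPC, in 6 of 6 and 3 of 3 tested microRNAs with 0 passing the test, beside the higher miR-146a there.

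In the other comparisons with AMC the log2 fold change of miR-150 was 0.13 ± 0.25 (SE, 95% interval -0.40 to 0.67) for LAD against AMC and -0.03 ± 0.28 (SE, 95% interval -0.63 to 0.57) for RIPC against AMC. For RIPC+LAD it was -0.30 ± 0.28 (SE) against AMC and -0.27 ± 0.31 (SE) against RIPC, and these became -0.67 and -0.66 without RIPC+LAD 1, and -0.11 and -0.08 without RIPC+LAD 2. For this most abundant member the upper end of the interval of LAD against AMC was 1.59-fold.

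MiR-21 was counted 36 and 34 times in RIPC+LAD, 51, 27 and 13 times in LAD, 39 and 30 times in RIPC, and 51, 46 and 53 times in AMC. Its level was 8.84 ± 0.20 log2 CPM in RIPC+LAD (SD, n = 2), 9.07 ± 0.18 in LAD (SD, n = 3), 8.74 ± 0.32 in RIPC (SD, n = 2), while AMC stood at 9.09 ± 0.13 (SD, n = 3). LAD and AMC were nearly alike in their means, and both groups that had RIPC were lower. The log2 fold change of LAD against AMC was -0.004 ± 0.28 (SE), with an interval from 0.658-fold to 1.51-fold.

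For miR-21 the scaling decided whether groups overlapped. Per 100000 microRNA counts its level was 44.6 and 36.5 in RIPC+LAD, 49.8, 62.9 and 45.6 in LAD, 43.3 and 40.9 in RIPC, and 56.4, 46.9 and 51.5 in AMC, so that all 4 animals with RIPC lay below all 6 animals without it. With the TMM factors the log2 CPM was 8.98 and 8.70 in RIPC+LAD, 9.06, 9.25 and 8.89 in LAD, 8.96 and 8.51 in RIPC, and 9.09, 8.95 and 9.21 in AMC, and RIPC+LAD 1 and RIPC 1 lay above the lowest animals of LAD and AMC. The log2 fold change was -0.35 ± 0.31 (SE) for RIPC against AMC, -0.25 ± 0.31 for RIPC+LAD against AMC and -0.25 ± 0.32 for RIPC+LAD against LAD. LAD against RIPC was at 0.35 ± 0.32 (SE) and RIPC+LAD against RIPC at 0.10 ± 0.34. Single animals moved these values, since RIPC against AMC was at -0.64 without RIPC 1 and -0.13 without RIPC 2, and LAD against RIPC was at 0.65 without RIPC 1 and 0.13 without RIPC 2. Without RIPC+LAD 1 the value was -0.55 against AMC and -0.53 against LAD, and without RIPC+LAD 2 it was -0.11 against each. The ordering per 100000 was noticed after the values were seen and was not tested as such. Its nearest values, 44.6 and 45.6, rest on 36 and 13 counts. How many other microRNAs part the animals with and without RIPC in this way per 100000 was not computed. The ordering therefore cannot be called unusual for miR-21.

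**Figure D3:**
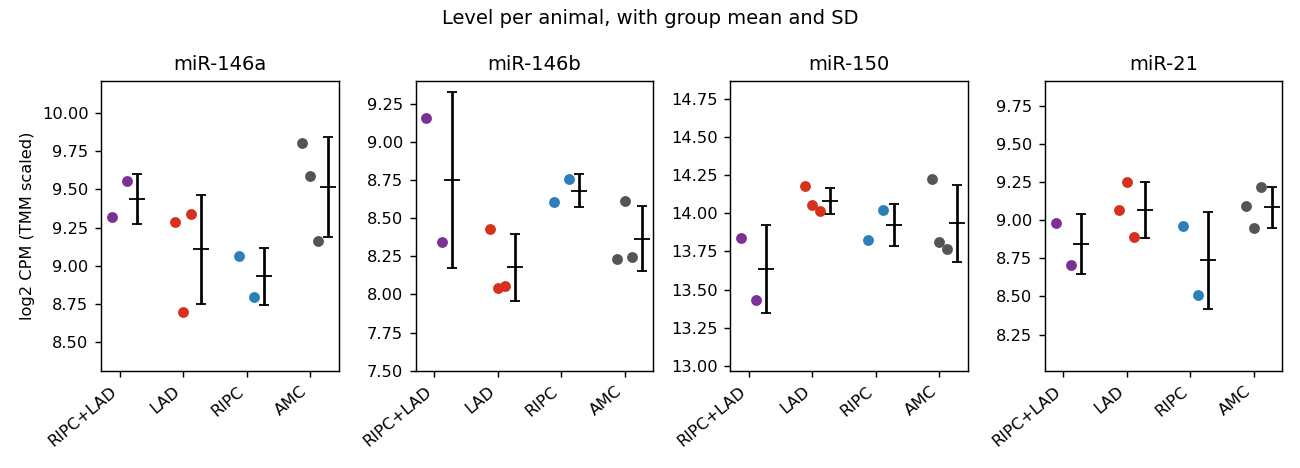
Level of the 4 detected members in log2 CPM, 1 panel per microRNA and 1 point per animal, with the mean ± SD of each group (RIPC+LAD, LAD, RIPC and AMC) beside the points. The RIPC points of miR-146a lie below the AMC points, the RIPC+LAD points of miR-150 lie below the LAD points, and most other groups overlap.

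Over all 6 pairs of groups and the interaction, none of the 4 members tested passed the adjusted threshold of 0.05 in edgeR, and 0% of the 253 microRNAs tested passed it in any of these 7 comparisons or in the test of any difference among the 4 groups. In that last test the adjusted p was 0.719 for miR-146a, 0.751 for miR-146b, 0.833 for miR-150 and 0.858 for miR-21. At an unadjusted p under 0.05 in edgeR, 14 microRNAs stood out in LAD against AMC, 3 in RIPC against AMC, 22 in RIPC+LAD against AMC, 44 in RIPC+LAD against LAD, 17 in RIPC+LAD against RIPC, 7 in LAD against RIPC, 31 in the interaction and 22 in the test of any difference, and none of them was a member. DESeq2 called 1 microRNA in RIPC+LAD against AMC and 0 elsewhere, limma-voom called 0, and the 1 microRNA was no member. These p-values show that no difference was established and not that the groups were alike, since the 95% intervals of the members run from 0.396-fold to 2.61-fold over the pairs of groups.

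Counted over the 6 pairs of groups and 4 members, 4 of 24 member comparisons did not overlap in log2 CPM. The share over all 253 microRNAs ran from 9.09% in LAD against AMC to 49.0% in RIPC+LAD against RIPC. In RIPC+LAD against AMC, where 30.8% of all microRNAs did not overlap, 0 of the 4 members were separated. With counts per 100000 alone 7 of 24 were separated, and 3 comparisons were separated on both scales, those of miR-150 in RIPC+LAD against LAD, miR-146a in RIPC+LAD against RIPC and miR-146b in LAD against RIPC. The share over all microRNAs was not computed for counts per 100000.

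**Figure D4:**
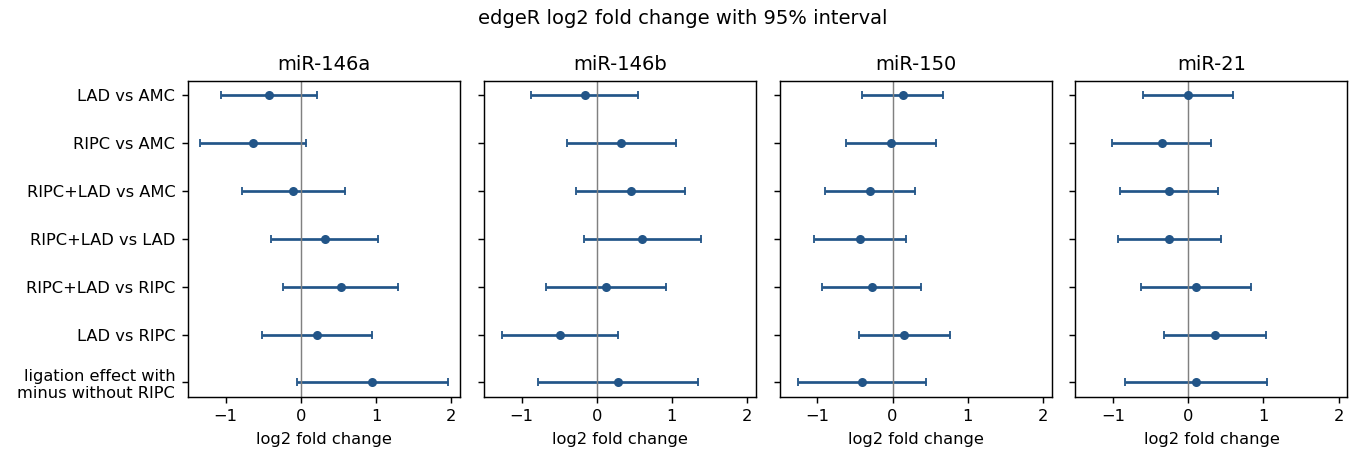
Log2 fold change of miR-146a, miR-146b, miR-150 and miR-21 in the 6 pairs of groups and the interaction, with 95% intervals as bars and a line at no change. All intervals cross the line, and the largest value is that of miR-146a in the interaction, at 0.95 with an interval of -0.05 to 1.95.

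The 4 members did not share a direction in any comparison. The median log2 fold change of the 4 members was -0.08 in LAD against AMC, beside -0.01 over all microRNAs tested, with 1 member at a higher and 3 at a lower value. It was -0.19 in RIPC against AMC beside -0.03, and -0.18 in RIPC+LAD against AMC beside -0.01, again with 1 higher and 3 lower in each. In RIPC+LAD against LAD it was 0.03 beside 0.02, with 2 in each direction. In RIPC+LAD against RIPC it was 0.11 beside 0.07 and in LAD against RIPC 0.18 beside 0.08, with 3 higher and 1 lower in each. The comparisons with AMC share the AMC samples.

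The spread between animals was small. The within-group SD was 0.20 log2 units for miR-150 and 0.20 for miR-21, against a median of 0.42 over all microRNAs tested, and only 3.56% of them had a value at or below that of miR-150. For miR-146a and miR-146b it was 0.30. Counting alone would give an SD of 0.04 for miR-150, 0.23 for miR-146a, 0.25 for miR-21 and 0.31 for miR-146b. Only for miR-150 was the spread between animals well above the counting error, and for miR-21 and miR-146b the counting error was no smaller than the whole spread.

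The other microRNAs linked to innate immune signalling were taken from a list by number (miR-9, miR-19, miR-24, miR-27, miR-124, miR-125, miR-132, miR-181, miR-203, miR-221, miR-222, let-7e and let-7i), of which 16 of 20 probes were tested and 0 passed in any comparison. In RIPC against AMC 3 were at higher and 13 at lower values, with a median log2 fold change of -0.11 beside -0.03 over all microRNAs. In LAD against AMC 7 were higher and 9 lower, with a median of -0.02. In RIPC+LAD against LAD 12 were higher and 4 lower, with a median of 0.22 beside 0.02. The values there ran from -0.69 ± 0.29 (SE) for miR-27a to 0.86 ± 0.32 (SE) for miR-125a-3p. In RIPC+LAD against AMC 12 were higher and 4 lower, with a median of 0.17 beside -0.01. Of all microRNAs tested, 45.8% were at higher values in RIPC against AMC and 47.8% in LAD against AMC. The share was 51.4% in RIPC+LAD against LAD and 47.4% in RIPC+LAD against AMC. Several probes of the list are arms or relatives of the same microRNA, so their directions are not independent. MiR-125a-5p, whose family represses tumour necrosis factor in mouse macrophages, was at 0.62 ± 0.29 (SE) in RIPC+LAD against LAD (adjusted p = 0.267 in edgeR). MiR-125b-5p of the same family, the most abundant of the list, was at 0.45 ± 0.28 (SE), miR-124, a neuronal microRNA also known to keep microglia quiescent, at 0.14 ± 0.38 (SE), and miR-9, of neural cells, at -0.003 ± 0.31 (SE).

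Leukocyte microRNAs gave a second view of blood and microglial cells. MiR-142-3p, found in nearly all blood cells and in microglia, was counted 17 and 19 times in RIPC+LAD, 25, 17 and 2 times in LAD, 15 and 12 times in RIPC, and 17, 15 and 56 times in AMC. AMC 3 was high and LAD 3 low, and LAD 3 was the 1 sample below its threshold. The whole list of 4 (miR-142-3p, miR-142-5p, miR-342-3p and miR-342-5p), led by miR-342-3p, summed to 644 to 709 per 100000 in RIPC+LAD, 517 to 732 in LAD, 718 to 753 in RIPC and 659 to 771 in AMC. On this scale RIPC+LAD lay below RIPC, and the other ranges overlapped. After TMM scaling 3 of the 4 were at higher and 1 at lower values in RIPC+LAD against RIPC. Their median log2 fold change was 0.25 beside 0.07 over all microRNAs, and miR-342-3p was at 0.01. The erythrocyte list (miR-451 and miR-144) summed to 11.8 to 13.6 per 100000 in RIPC+LAD, 16.6 to 49.0 in LAD, 21.1 to 32.7 in RIPC and 15.3 to 30.1 in AMC, so that RIPC+LAD lay below the other groups. Both microRNAs were near background. MiR-451 had a mean count of 12.4 and was above background in 8 of 10 samples, and miR-144 had 4.9 and was above it in 2. Of all microRNAs, 30.8% to 49.0% did not overlap in log2 CPM between RIPC+LAD and another group. No microRNA of the leukocyte and erythrocyte lists passed the test in any comparison, and their part in the member values was not tested.

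Each member had its own closest companions in level over the 10 samples, by Pearson's r of log2 CPM. MiR-146a went most closely with miR-126 (r = 0.79), an endothelial microRNA, and then with miR-28 (r = 0.71) and let-7e (r = 0.69). MiR-146b went with miR-592 (r = 0.84), miR-340-3p (r = 0.74) and miR-374 (r = 0.73). MiR-150 went with miR-30c (r = 0.91), miR-27b (r = 0.88) and miR-219-2-3p (r = 0.85), the last an oligodendrocyte microRNA, and miR-21 with miR-350 (r = 0.80), miR-449a (r = 0.75) and miR-15b (r = 0.66). These are the highest values over all other detected microRNAs, the points share their libraries and scaling, and miR-28, miR-592, miR-340-3p, miR-374, miR-350 and miR-449a had mean counts of only 10.4 to 22.7.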

How the data were processed

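The authors assayed total RNA of DVC punches with the NanoString nCounter rat microRNA panel, which joins each microRNA to a tag and reads tags as fluorescent barcodes with no amplification step. The counts as deposited are whole, are not normalized, and are at least 1. The sources used here do not name the counting software. The deposited log2 table holds 146 microRNAs as log2 counts per 100000 microRNA counts of the sample (largest difference from the counts 4.98e-09), and it served as an alternative.

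A microRNA was tested if, in at least 2 samples, it exceeded the mean of the 8 negative controls by over 2 SD, which 253 of 420 passed. Counts were scaled by TMM and tested with edgeR 4.0.16 (quasi-likelihood F test, R 4.3.3), all 10 samples in 1 fit, two-sided, with Benjamini-Hochberg adjustment over the 253 and a threshold of 0.05. The SE is the size of the log2 fold change divided by the root of the F statistic, and log2 CPM used a prior count of 2. Each animal has 1 number in the labels, so p-values rest on the spread over animals, counting error included. Sample pairs of a group differed by a chi-square of at least 7.95 per degree of freedom, more than counting error alone would give. The lowest value over all pairs, 5.44, was that of AMC 3 with LAD 2, and no known repeat was there for comparison. Poisson intervals cover counting error only. On simulated counts with known changes, only the mean fold change returned by the fit was checked. How often the tests call such changes in groups of this size is not reported here. Alternatives included DESeq2 1.42.0, limma 3.58.1, other scalings and filters, and each sample left out. Named are all members, the 3 microRNAs closest to each in level, and list members of largest mean count, with miR-449c-5p and miR-219-1-3p added as markers seen at background. MiR-27a and miR-125a-3p were added as the lowest and highest value of the innate immune list in RIPC+LAD against LAD. Members and lists were chosen with earlier results of these data known.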

Additional observations from a re-analysis of the deposited data

How the results depend on the processing

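None of the 4 members tested passed the threshold under any alternative. Of 664 member fold changes refitted, 53 changed sign, 50 of them with both values under their SE, and 3 reversed, all for miR-146b without RIPC+LAD 1. Leaving out 1 sample at a time, miR-146b ranged from -0.18 to 0.83 in RIPC+LAD against AMC, from -0.0099 to 0.99 against LAD and from -0.53 to 0.50 against RIPC. Over all microRNAs, where 0 passed, the count became 1 with DESeq2 and 0 to 1 with 1 sample left out (1 without AMC 3 or without LAD 1) in RIPC+LAD against AMC. It became 1 in RIPC+LAD against LAD where animals whose numbers share a prefix formed a random block, whose correlation was -0.227. It became 8 in RIPC+LAD against RIPC with only the groups compared and 1 within the low spike-in set, and 1 in LAD against RIPC within the low set. In the interaction it became 1 with the prefix block and 0 to 1 with 1 sample left out (1 without RIPC 1). With scaling to the top 100 microRNAs, the median log2 fold change of all microRNAs shifted by 0.14 in LAD against AMC, -0.18 in RIPC+LAD against LAD, -0.12 in RIPC+LAD against RIPC and -0.25 in the interaction. Without a TMM factor it shifted by -0.13 in RIPC+LAD against LAD, -0.19 in RIPC+LAD against RIPC and -0.22 in the interaction. The cause of these changes was not tested. The fits within a spike-in set and without LAD 2 and LAD 3 were chosen after seeing the data. No paired analysis was possible because the animal numbers join no animals across groups. Both RIPC+LAD animals share a number prefix, and so do LAD 2 and LAD 3, and AMC 2 and AMC 3. No prefix is shared between groups. What the prefix marks is not stated, so anything it stands for cannot be told apart from RIPC+LAD. Depth limits miR-146a, miR-21 and miR-146b most, above all in LAD 2 and LAD 3, where they had 7 to 27 counts.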
